A study of Rattus norvegicus with 9 samples.

Results

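Among 9 bead arrays of rat cerebral cortex, 3 were dimmer than the rest, and their transcript levels are set here against those of the other 6. The 3 dim arrays were those whose mean probe intensity, over all 22517 probes and before any normalization, lay under 200, and the 6 brighter arrays were those at 200 or more. The division therefore came from the measured intensities and from no label. All 9 animals were untreated with respect to radiation, the control animals of a study of offspring of irradiated rats; the irradiated animals were not analysed here. Each was a Sprague-Dawley rat of 60 days, with 3 females and 6 males in all. The dim arrays were those of male 2, male 4 and female 2, and the brighter ones those of females 1 and 3 and males 1, 3, 5 and 6, numbered within sex in record order. Dim and brighter arrays thus held the sexes in the same proportion. Every animal shared the same strain, age, tissue and lack of irradiation, per the labels. Nothing in the labels sets the 3 animals apart as a condition, so what follows describes these arrays, and the tests in it support no effect of a treatment or of biology.

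On a bead array of this kind, total RNA is copied into biotin-labelled cRNA by an amplification that starts at the poly(A) tail, and each probe reports the brightness of the labelled cRNA that it binds. Quantile normalization then gives every array the same distribution of intensities, so that a difference in overall brightness is removed and what is left is a difference in the order of transcripts within an array. In cortex the most abundant nuclear-encoded messages include those of ribosomal proteins, oxidative metabolism, glycolysis and synaptic transmission, and neurons are also known for many very long genes of channels, receptors and adhesion molecules.

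The mean intensity was 185.4 in male 2, 183.6 in male 4 and 183.7 in female 2. In the 6 brighter arrays it was 212.2 at the lowest, in female 3, and 238.8 at the highest, in male 5. The arrays just inside and just outside the limit stood at 185.4 and 212.2. Each sample title carries 1 of 3 numbers that the labels leave unexplained. The first title number was that of male 2 and of 2 brighter arrays (female 1 and male 1), the second that of male 4, female 2 and 1 brighter array (male 3), and the third that of the other brighter arrays (males 5 and 6 and female 3). These values chose the arrays and are given as a description.

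The dimness lay in the upper part of the intensity range and not at its lower end. The 1st percentile of intensity was 34.2, 33.0 and 33.0 in male 2, male 4 and female 2 and 32.1 to 35.6 in the brighter arrays, so the background end overlapped. The median probe differed by -0.03 on the log2 scale, dim minus brighter, and also overlapped. The 75th percentile was 108.6, 109.5 and 109.3 in the dim arrays against 119.96 to 137.6 in the brighter ones. At the 99th percentile the dim arrays read 2477, 2429 and 2396 and the brighter arrays 2999 to 3452, a ratio of 0.770. From the 70th percentile upward every dim array lay below every brighter one. The difference was -0.23 at the 75th, -0.32 at the 90th and -0.38 at the 99th percentile. The ratio of the 99th to the 1st percentile, a measure of how far signal rises above background, was 72.4 to 73.5 in the dim arrays and 84.2 to 103.5 in the others. The number of probes above an intensity of 200 was 3662 to 3713 against 4099 to 4470.

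**Figure D1:**
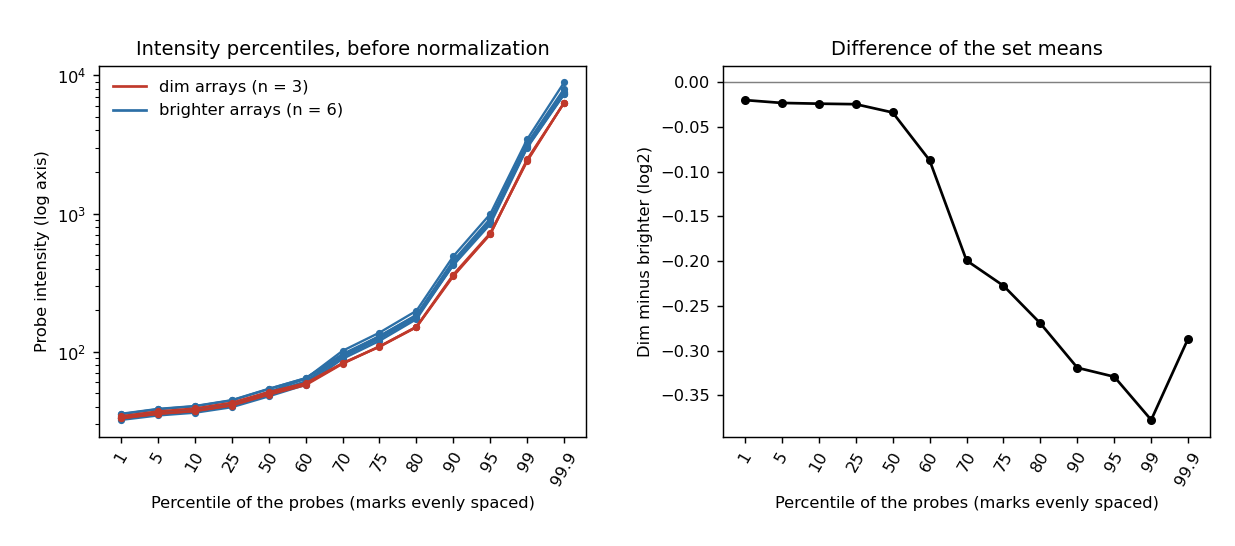
Left, probe intensity (log axis, unnormalized) at 13 percentiles for the 3 dim arrays (red) and the 6 brighter arrays (blue), 1 line per array; right, the mean log2 difference, dim minus brighter, at each percentile. The sets overlap up to the 60th percentile and separate from the 70th, with the widest difference, -0.38, at the 99th.

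After quantile normalization the 3 dim arrays still resembled each other. The Pearson correlation of log2 values over all probes was 0.9930 to 0.9938 for the 3 pairs of dim arrays, 0.9878 to 0.9943 for the 15 pairs of brighter arrays and 0.9832 to 0.9904 for the 18 mixed pairs. These correlations are across probes, which are not independent replicates. Levels below are quantile-normalized log2 intensities, and a difference is the dim mean minus the brighter mean with its SE. A probe was called where limma's p, adjusted by Benjamini-Hochberg over all 18531 probes tested, was under 0.05. Of these probes 1667 were called, 9%, with 880 higher (4.75%) and 787 lower (4.25%) in the dim arrays. The smallest adjusted p was 0.00012. In 1638 probes, 8.84%, the dim and brighter values did not overlap and the means differed by 0.25 or more, 830 of them higher (4.48%) and 808 lower (4.36%). The typical difference was small, with a median size of 0.09 over all probes and 0.36 over those called.

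How many probes were called depended on the arrays and on the scaling. With male 2 left out the count was 697, with male 4 left out 728 and with female 2 left out 831. Leaving out any 1 brighter array gave 1227 to 1845. Since fewer probes of every kind were called without a dim array, a call lost there does not by itself tie a gene or list to that animal. With title number as a block the count was 494, of which 471 had been called in the same direction without the block. The third title number held no dim array, so males 5 and 6 and female 3 add nothing to the blocked difference itself. A call lost with the block thus also reflects fewer brighter arrays in the comparison. The near-even split into higher and lower probes is a property of quantile normalization: with each array scaled to its 75th percentile, 3973 probes were called higher and 1345 lower and the median of all probes stood at 0.14. Scaled to the array median, 128 were higher and 3156 lower, and with no normalization 66 and 3961. Differences below are therefore relative to the rest of the same array. Of the 880 probes called higher, 723 were higher in the dim arrays in the unnormalized intensities as well. Those intensities made the division of the arrays, so this count is a description and no added support. Calls were rare among the dimmest probes and frequent among the brightest, with 0.22% in the lowest of 10 groups by mean level and 24.9% in the highest.

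Of the named genes with the smallest p, Ncoa1 and Cul1 came first among those higher in the dim arrays. Ncoa1, a coactivator of nuclear receptors, read 9.16 in male 2, 9.20 in male 4 and 9.18 in female 2, against a lowest value of 8.43, a median of 8.51 and a highest of 8.53 in the brighter arrays. Its difference was 0.68 ± 0.05, a 1.60-fold higher intensity (limma, adjusted p = 0.00012). Cul1, the scaffold of SCF ubiquitin ligases, read 11.17, 11.20 and 11.26 against 10.54, 10.57 and 10.68, a difference of 0.62 ± 0.06. In both genes the dim arrays lay within 0.1 of each other and well clear of the others. Stau2, which binds double-stranded RNA in neuronal transport granules, read 8.98, 8.94 and 8.91 against 8.31, 8.38 and 8.43. Ift80, a subunit of the intraflagellar transport complex of cilia, read 9.01, 9.01 and 9.08 against 8.08, 8.27 and 8.51, a difference of 0.76 ± 0.09. The other 6 by this rule differed by 0.53 to 0.64. They were Appbp2, which binds the amyloid precursor protein, Map4k3, a kinase upstream of mTORC1 and JNK signalling, Cdc16, a subunit of the anaphase-promoting complex, Pot1, a telomere-binding protein, the zinc finger gene Zmym6 and the membrane protein gene Tmem123. A second Cdc16 probe, the brighter of the 2, differed by only 0.10 ± 0.08 and was not called (adjusted p = 0.55).

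The largest differences above the brighter arrays were in genes that varied more among animals. Opalin, a membrane protein of myelinating oligodendrocytes, read 8.76 in male 2, 7.97 in male 4 and 8.03 in female 2, against 6.40, 7.09 and 7.64 (lowest, median, highest), a difference of 1.14 ± 0.23 (2.20-fold; limma, adjusted p = 0.0095). Without male 2 it was 0.89 and missed the threshold (adjusted p = 0.060). Scd, the stearoyl-CoA desaturase that makes monounsaturated fatty acids, read 8.56, 8.80 and 8.59 against 7.53, 7.75 and 8.12. Cacna2d1, the α2δ subunit of voltage-gated calcium channels that binds gabapentin, read 11.26, 11.24 and 11.23 against 10.15, 10.28 and 10.76, so the dim arrays were nearly equal while the brighter ones ranged over more than 0.5. Cyyr1 differed by 0.87 ± 0.13. Napb, β-SNAP of the membrane fusion machinery, differed by 0.90 ± 0.23 and lost its call without male 2, male 4, female 2 or female 3 (adjusted p = 0.11, 0.070, 0.11 and 0.055).

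Among the genes lower in the dim arrays by the smallest p, 5 encoded cytosolic ribosomal proteins or a ribosomal protein-like gene. Rpl23, of the large subunit, read 9.42 in male 2, 9.50 in male 4 and 9.25 in female 2, against 10.23, 10.35 and 10.54, a difference of -0.99 ± 0.08 (1.98-fold lower; limma, adjusted p = 0.00012). Rps29, of the small subunit, read 10.57, 10.44 and 10.31 against 11.05, 11.18 and 11.27. Rps26 read 9.75, 9.78 and 9.75 against 10.36, 10.55 and 10.83, a difference of -0.80 ± 0.09. The gap between the sets exceeded the spread within either set for Rpl23 and Rps26. Rpl13a and the ribosomal protein-like gene Rpl37l1 both differed by -0.69, and Rps12, named for the size of its difference, by -0.83 ± 0.12. Ribosomal protein genes have many processed copies in mammalian genomes, so probes for them may bind more than 1 transcript, and their values are uncertain in that respect.

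The other genes of this group had roles in membrane traffic, protein modification and mitochondria. Dnm1, the dynamin of synaptic vesicle endocytosis, read 11.70, 11.68 and 11.70 against 12.23, 12.33 and 12.52, a difference of -0.66 ± 0.07. Hspe1, the mitochondrial co-chaperonin, read 8.12, 7.89 and 7.83 against 8.50, 8.78 and 8.99. Glrx5, a mitochondrial glutaredoxin of iron-sulfur cluster synthesis, read 8.79, 8.89 and 8.90 against 9.34, 9.39 and 9.52. These 3 were lower in every dim array than in any brighter one. Trmt112, the partner that several RNA and protein methyltransferases need, differed by -0.50 ± 0.06, Trappc2l, of the TRAPP tethering complexes, by -0.79 ± 0.09, and Nicol1 by -0.74 ± 0.06. The 27 genes of the last 4 paragraphs were chosen by their p or their lack of overlap, so that their separation is no added evidence, and since no dim value of theirs overlaps a brighter one, their direction within a title number is fixed by that choice. The sizes were 0.43 to 1.41 for the higher and -1.09 to -0.54 for the lower genes within the first title number, 1 dim against 2 brighter arrays. Within the second, 2 dim against 1 brighter array, they were 0.45 to 1.10 and -0.91 to -0.40.

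**Figure D2:**
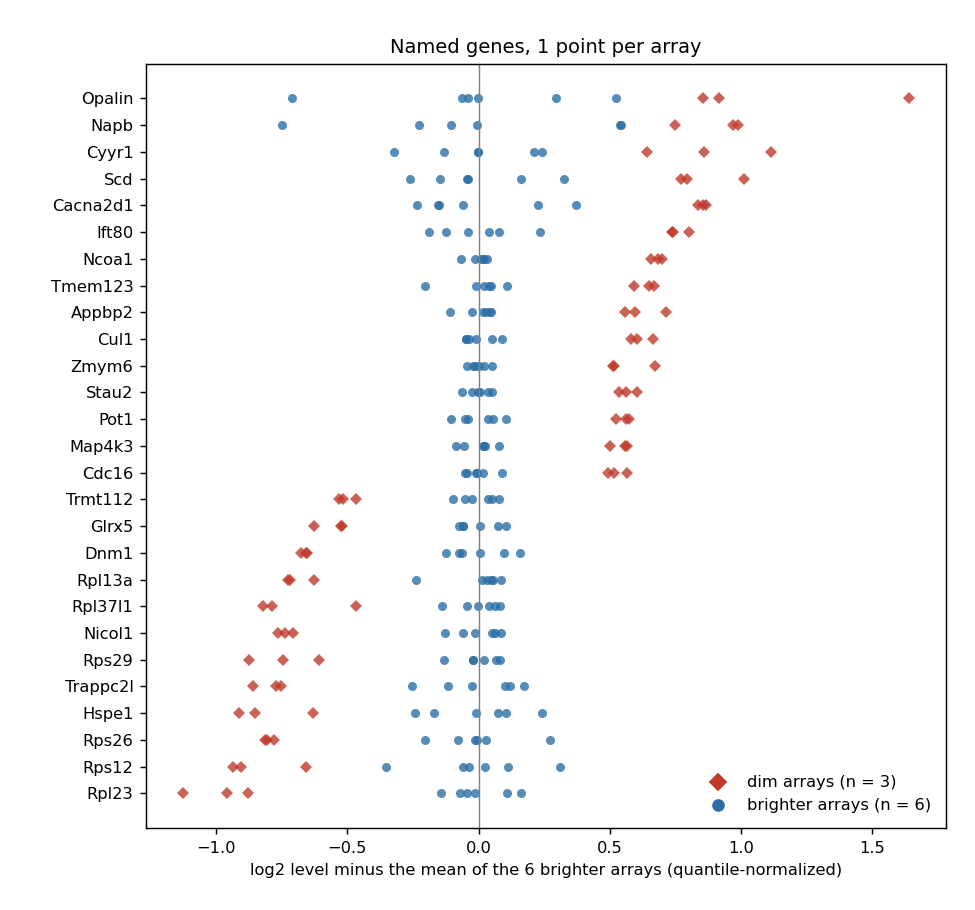
Log2 level of each of the 27 named genes on each array (quantile-normalized), minus the mean of the 6 brighter arrays; red diamonds are the 3 dim arrays and blue circles the 6 brighter arrays. No red point overlaps the blue range of its gene, and Opalin (difference 1.14) and Napb (0.90) show the widest spread among the brighter arrays.

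For gene classes, each of 10327 genes was represented by its brightest probe. Of these genes, 6.06% were called higher and 5.62% lower, and the median difference of all genes was 0.00. Cytosolic and mitochondrial ribosomal proteins, the respiratory chain, glycolysis and proteasome subunits each had a larger share called lower than that. The share of all genes is not matched for level, and calls rise with level. These lists had median levels of 8.55 to 11.4, against 6.46 for all genes. In the 9th and 10th of 10 groups of probes by level, 220 and 229 of 1853 were called lower. Of 63 cytosolic ribosomal protein genes, 17 were called lower and 3 higher, with a median of -0.08. The list was mixed rather than uniformly lower, since 25 of the 63 had a difference above 0, against 48.8% of all genes. Those called higher were Rps24 (0.39 ± 0.07), Rplp0 (0.21) and the muscle paralog Rpl3l (0.42). The lower calls numbered 13 to 17 with any 1 array left out and 10 with title number as a block.

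Mitochondrial ribosomal proteins, which translate the few messages of the mitochondrial genome, showed the most one-sided pattern among the larger lists. Of 58 genes, 17 were called lower and none higher, against 5.62% and 6.06% of all genes, and the median was -0.15. Mrpl35, of the large subunit, read 8.22 in male 2, 8.06 in male 4 and 7.99 in female 2, against 8.42, 8.62 and 8.68 (lowest, median, highest), a difference of -0.50 ± 0.08 (limma, adjusted p = 0.0027). Mrps25 differed by -0.38 ± 0.07 and Mrpl44 by -0.34 ± 0.06. The count of lower calls was 8 without male 2, 9 without male 4, 9 without female 2, 11 without female 3 and 4 with title number as a block. The median stayed below 0 in each of those fits and within the first (-0.13) and the second (-0.14) title number.

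The respiratory chain, whose complexes carry electrons and make ATP, had 13 of 60 nuclear genes called lower and 2 higher, with a median of -0.09. Ndufb6, an accessory subunit of complex I, read 9.63, 9.56 and 9.58 against 9.92, 10.03 and 10.29, a difference of -0.49 ± 0.09. Ndufs8, a complex I core subunit, differed by -0.38 ± 0.06 and Ndufb3 by -0.43 ± 0.08. The lower calls fell to 5 without male 2, male 4 or female 2, to 8 without female 3 and to 3 with title number as a block. Glycolysis had 4 of 14 genes called lower, none higher, and a median of -0.21. Aldoa, the aldolase, read 11.27, 11.36 and 11.33 against 11.57, 11.69 and 11.82, a difference of -0.37 ± 0.07. Eno2, the neuronal enolase, differed by -0.32 ± 0.08, Pkm, pyruvate kinase, by -0.36 ± 0.09 and Ldha, lactate dehydrogenase A, by -0.31 ± 0.08. In all 4 the dim arrays lay below every brighter array, by a margin of under 0.1 in Pkm and Ldha. The glycolysis count was 1 without male 4 or female 2, 2 without male 2 or female 3 and none with title number as a block.

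Proteasome subunits had 7 of 36 genes called lower and none higher, with a median of -0.06. Psmd1, a base subunit of the regulatory particle, read 8.97, 8.75 and 8.65 against 9.09, 9.29 and 9.34, and Psma7, an α subunit of the core, read 10.50, 10.54 and 10.54 against 10.81, 10.95 and 11.02. Both kept their calls in each alternative run. The count was 4 without male 2, male 4 or female 2 and 3 with the block. Heat shock proteins and co-chaperones had calls on both sides, 8 higher and 9 lower of 62 (12.9% and 14.5%, against 6.06% and 5.62% of all genes). Among them the Hsp70 relative Hspa13 differed by 0.45 ± 0.07 and the endoplasmic reticulum chaperone Hsp90b1 by -0.54 ± 0.10. Translation factors had 6 of 46 called higher (13%) and 2 lower (4.35%). Eif2b5, a subunit of the exchange factor for eIF2, differed by 0.28 ± 0.06, and none of the 46 was called without male 2, with 1 higher and 0 lower without female 2 or with the block and 2 higher and 1 lower without male 4. For heat shock proteins the calls were 3 higher and 3 lower without male 2 and 3 higher and 5 lower without male 4 or without female 2, and 2 higher and 2 lower with the block.

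**Figure D3:**
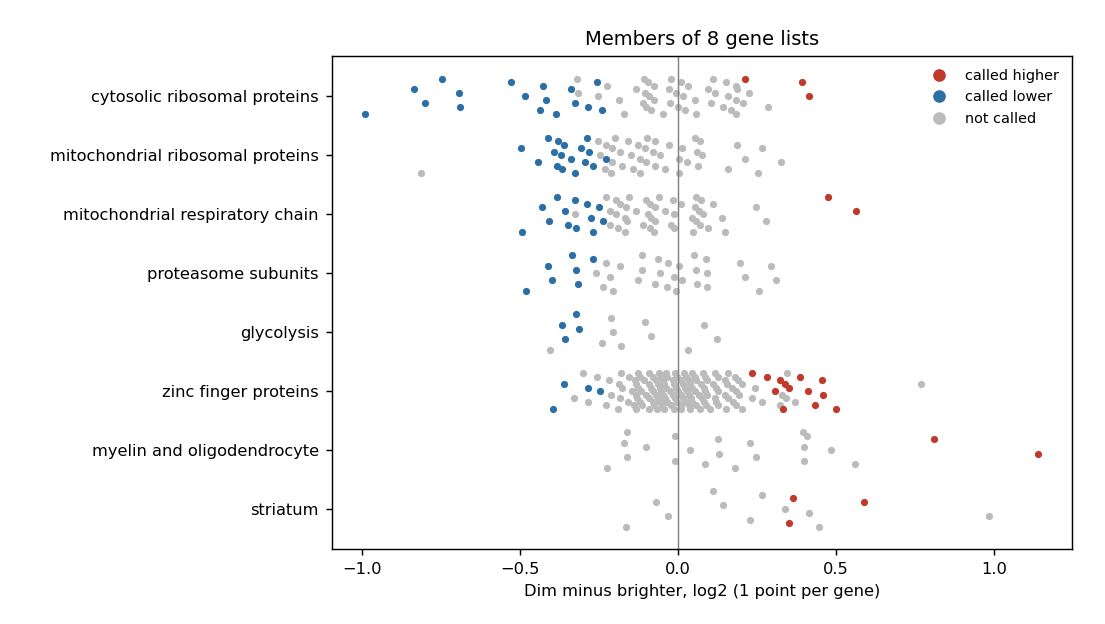
Difference between dim and brighter arrays (log2, quantile-normalized) for the members of 8 gene lists, 1 point per gene, with genes called higher in red, called lower in blue and not called in grey. The calls in mitochondrial ribosomal proteins, proteasome subunits and glycolysis lie at negative differences, those in striatum and myelin at positive ones, and cytosolic ribosomal proteins range from -0.99 to 0.42.

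Genes of neuronal signalling had calls in both directions. Of 35 ionotropic and metabotropic amino acid receptor genes, 4 were called higher (11.4%) and 2 lower (5.71%), against 6.06% and 5.62% of all genes. Gria2, the AMPA receptor subunit that sets calcium permeability, read 11.48, 11.49 and 11.49 in male 2, male 4 and female 2 against 10.90, 11.09 and 11.12, a difference of 0.43 ± 0.06. Gabrb2, a β subunit of the GABA-A receptor, read 6.97, 6.88 and 7.15 against 6.31, 6.39 and 6.74, a difference of 0.57 ± 0.10. Grin1, the obligatory NMDA receptor subunit, ran the other way, at 10.11, 10.32 and 10.34 against 10.59, 10.75 and 10.87, a difference of -0.47 ± 0.08. The remaining calls were Gabra4 (0.49) and Gabrg1 (0.40), both GABA-A subunits, and Gabbr2 (-0.43), a subunit of the GABA-B receptor. The 3 called GABA-A subunits were all higher, and the lower calls belonged to NMDA and GABA-B receptors. So few calls show no pattern by receptor family. The Gabbr2 call was lost without male 2. The Gria2 call was lost with median scaling and with no normalization, while the Grin1 and Gabrb2 calls held in each alternative run; without female 2, or with the block, 2 receptor genes were called higher and 2 lower.

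Among 38 sodium, calcium and TRP channel genes, 6 were called lower (15.8%) and 2 higher (5.26%), against 5.62% and 6.06% of all genes. Cacnb1, a β subunit of calcium channels, read 7.15, 7.30 and 7.27 against 7.70, 7.98 and 8.13, a difference of -0.70 ± 0.10, opposite in direction to Cacna2d1. Cacna1g, the pore of a T-type calcium channel, differed by -0.54 ± 0.10. The lower calls numbered 2 without female 2, 3 without male 4 or female 3 and 1 with the block, but 8 without male 5. Potassium channels had 4 of 68 called higher (5.88%) and 1 lower (1.47%), with the higher share near the 6.06% of all genes. Kcnc2, a fast Kv3 channel of interneurons, read 10.62, 10.62 and 10.78 against 9.95, 10.11 and 10.20. Its other probes had identical means and differences, so they count as 1 measurement, with a difference of 0.40 in the same direction. Synaptic vesicle and SNARE genes had 6 of 68 called lower (8.82%), Dnm1 with the smallest p, and 2 higher (2.94%). The lower calls numbered 2 without male 2, 3 without female 2, female 3 or male 6 and 3 with the block. Of 43 Rab GTPase genes 3 were called higher (6.98%) and 2 lower (4.65%), near the shares of all genes. Rab6b, of neuronal Golgi traffic, read 8.25, 8.12 and 8.19 against 7.32, 7.43 and 7.66. The synaptic vesicle proteins Rab3a (-0.32) and Rab3b (-0.43) were the lower calls. Neither was called without male 2, female 2, female 3 or male 6, and 1 of them was with the block.

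Zinc finger proteins, a large family of DNA-binding regulators, had 13 of 156 genes called higher (8.33%) and 4 lower (2.56%). The shares of all genes were 6.06% and 5.62%, and the list's median was 0.01. Zbtb33, known as Kaiso, read 7.59, 7.61 and 7.77 against 6.99, 7.17 and 7.28, a difference of 0.50 ± 0.08. The higher calls numbered 7 without male 2 or male 4, 8 without female 2 and 7 with the block. Olfactory, vomeronasal and taste receptors, which belong to sensory epithelia and have little known function in cortex, had 16 of 348 tested genes called higher and none lower, with a median of 0.02. Their higher share, 4.60%, was below the 6.06% of all genes, and their lower share was below as well. Those shares are not matched for level. The list's median level was 5.52, and of 1853 probes with a mean level from 5.46 to 5.54, 2 were called higher and 2 lower. The called genes lay at higher levels, where calls were more frequent. In the groups of 1853 probes covering mean levels from 5.88 to 8.97, 67, 161, 182 and 213 were called higher. Or1aa2 read 7.90, 7.83 and 7.71 against 7.10, 7.31 and 7.44. Olr59 read 8.95, 8.93 and 8.99 against 7.29, 8.26 and 8.61, a difference of 0.81 ± 0.21. The count of higher calls was 4 without male 2 or male 4 and 6 with the block. The 16 called genes averaged between 6.2 and 9.0 in the dim arrays, above the median probe; whether such signal comes from these receptors' own transcripts was not tested.

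**Figure D4:**
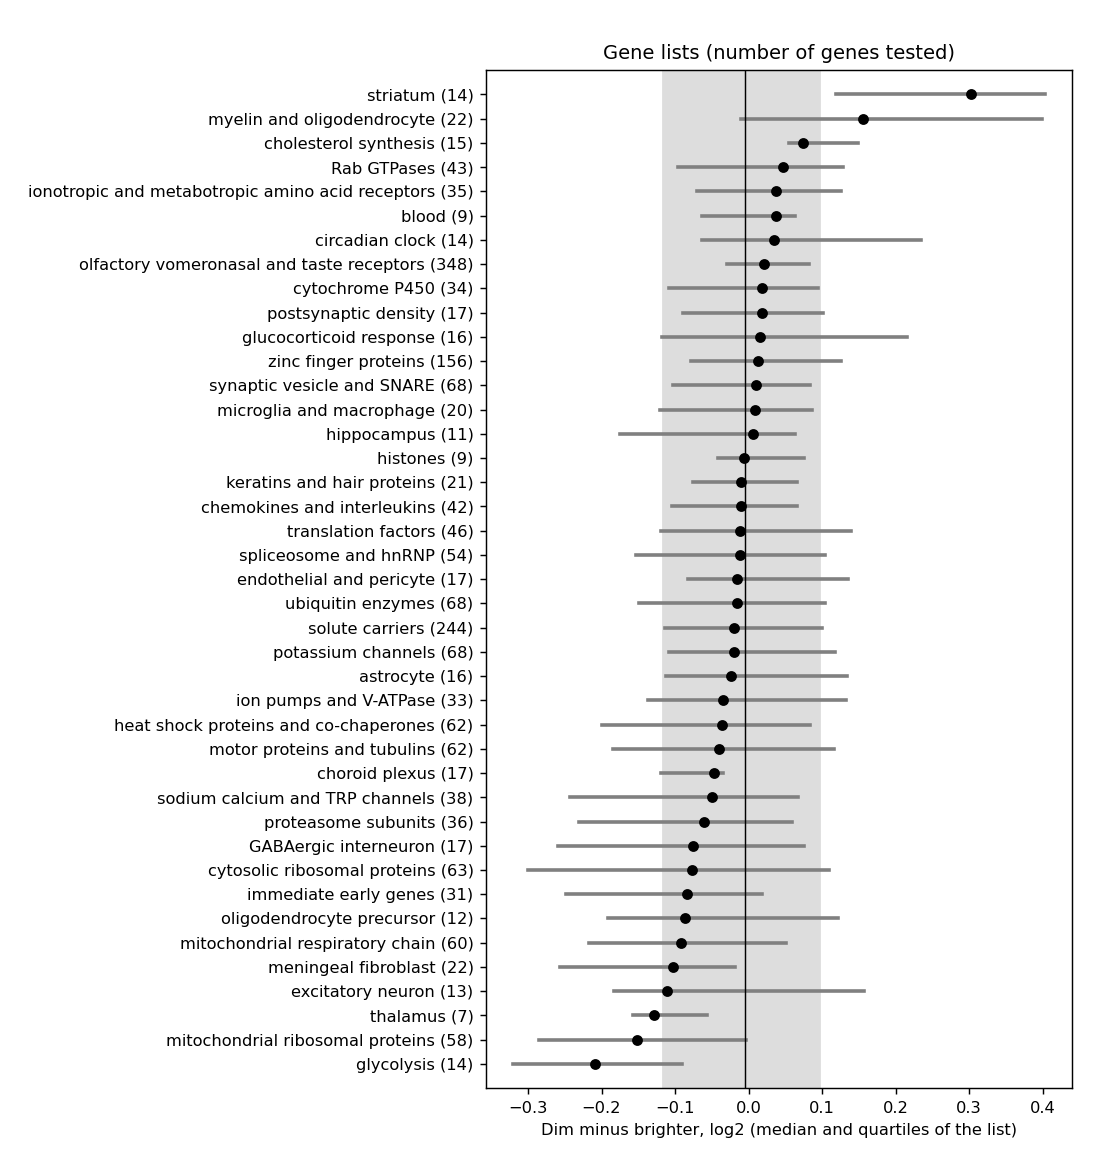
Median (point) and quartiles (bar) of the log2 difference, dim minus brighter, for 41 gene lists with the number of genes tested in brackets; the vertical line and grey band are the median and quartiles of all 10327 genes. Glycolysis (-0.21) and mitochondrial ribosomal proteins (-0.15) lie lowest and striatum (0.30) highest.

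The labelled tissue was checked against markers of cortical cells. Of 8 such genes, 7 had a tested probe, Slc17a7, Camk2a and Nrgn of excitatory neurons, Gad1 of interneurons, Gfap and Aqp4 of astrocytes and Mbp of myelin. All 7 were measured on every array, none was called and dim and brighter values overlapped in each. Camk2a, for example, was 8.02 to 8.38 in the dim arrays and 7.37 to 8.19 in the others. In a wider list of 13 excitatory neuron genes, 2 were called higher (15.4%, against 6.06% of all genes) and none lower, with a median of -0.11. Rorb, a nuclear receptor of layer 4 neurons, read 6.62, 6.33 and 6.45 in male 2, male 4 and female 2 against 5.89, 6.07 and 6.21, a difference of 0.41 ± 0.09, and Ccn2, a matricellular protein of the deepest cortical layer, differed by 0.40 ± 0.10. Rorb was not called without male 2, and Ccn2 was not called without male 2, male 4, female 2 or female 3 or with the block. In tissue RNA of this kind, fewer cells of a type and less RNA per cell cannot be told apart.

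Markers of other cell types and neighbouring regions varied among the animals of both sets. Of 14 striatal genes, 11 had a difference above 0, and the median was 0.30. In this list 3 were called higher (21.4%, against 6.06% of all genes) and none lower. Pde10a, a phosphodiesterase of medium spiny neurons, read 9.80 in male 2, 9.10 in male 4 and 9.46 in female 2, against 8.68, 8.83 and 9.08, a difference of 0.59 ± 0.13. The other calls were Drd2, the D2 dopamine receptor (0.37 ± 0.11), and Adcy5, an adenylyl cyclase (0.35 ± 0.09), whose sets overlapped. A list's deviation on an array is the mean, over its genes, of the level minus that gene's median over all arrays. For the striatal list it was 0.45 in male 2 and 0.34 in female 2. In male 4 it was -0.06, within the range of the brighter arrays (-0.24 to 0.29). No striatal gene was called without male 2 or without female 2, 1 was without male 1, male 6 or female 3 and with the block, and 6 were without male 5, whose deviation was 0.29. Of 22 myelin genes, Opalin and Ermn, a cytoskeletal protein of oligodendrocytes, were called higher (9.09%, against 6.06% of all genes) and none lower. The list's deviation was 0.17, -0.05 and 0.21 in male 2, male 4 and female 2, and -0.70 in male 5 against -0.14 to 0.22 in the other 5. Neither myelin gene was called without male 2. The list's median of 0.16 fell to 0.05 without male 5. The part of striatal tissue or myelin content in the other differences was not tested.

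Of 17 endothelial and pericyte genes, 8 had a difference above 0 and 9 below, with a median of -0.02. In this list 2 genes were called higher (11.8%, against 6.06% of all genes) and none lower. They were Slco1c1, a thyroid hormone transporter of brain capillaries and astrocytes (0.47 ± 0.11), and Itm2a (0.46 ± 0.12). Neither was called without male 4 or with the block. Of 20 microglial genes, 11 had a difference above 0 and 9 below, with a median of 0.01. The only call among them was C1qc, a chain of complement C1q, which was lower (-0.47 ± 0.10). That is 5% of the list, against 5.62% of all genes. No gene was called in the lists of astrocyte (16 genes), meningeal fibroblast (22), choroid plexus (17), hippocampal (11), thalamic (7), oligodendrocyte precursor (12) and blood (9) markers. The choroid plexus deviation was 0.34 in male 2 and 1.06 in male 3, a brighter array, with -0.15 to 0.04 elsewhere. Interneuron markers gave 2 lower calls of 17 (11.8%, against 5.62% of all genes), the neuropeptides Sst (-0.44 ± 0.09) and Cck (-0.38 ± 0.10). Sst read 9.69, 9.39 and 9.77 against 9.93, 10.03 and 10.18. In Cck the sets overlapped, with a highest dim value of 12.125 and a lowest brighter value of 12.094. The Sst call was lost without male 4 and the Cck call without male 2, male 4, female 2 or several brighter arrays, and both were lost with the block. Among immediate early genes, which neuronal activity induces within minutes, the phosphatase Dusp1 was called higher (0.67 ± 0.17) and the pentraxin Nptx2 lower (-0.52 ± 0.11), of 31 genes. Neither was called without male 2 or with the block, and Dusp1 was not called without male 1, male 4, male 6 or female 2.

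Several of the lists with many lower calls held short genes, such as cytosolic ribosomal proteins with a median span of 3193 bases and mitochondrial ribosomal proteins with 6172, whereas sodium, calcium and TRP channels, with 6 of 38 called lower, had a median of 70511. Gene span was therefore compared over all genes as a property that did not enter the division of the arrays. Span is the distance from the first to the last base of a gene in the RefSeq annotation of assembly GRCr8, introns included; the files state no build of their own. The median span was 36261 bases for genes called higher, 11297 for genes called lower and 21036 for those not called. Called genes were Ncoa1, at 277740 bases, and Cacna2d1, at 427960, among the higher, and Rpl23, at 3962, and Trmt112, at 854, among the lower. With genes put in 5 equal groups by span, 2.43%, 4.32%, 5.87%, 8.20% and 9.51% were called higher from the shortest to the longest. The share called lower ran the other way, at 9.12%, 7.23%, 5.34%, 3.93% and 2.52%. Both orders were the same without the 576 genes of 6 lists (cytosolic and mitochondrial ribosomal proteins, respiratory chain, glycolysis, proteasome, and the olfactory, vomeronasal and taste receptors), at 2.16% rising to 9.53% for the higher calls and 9.26% falling to 2.43% for the lower. The receptor list went against the order: its median span was 942 bases, with 315 of 346 genes in the shortest group, and none of its genes was called lower.

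The order by span was clearer among well-measured genes. With a mean level above 7, 20.6% of the 758 shortest genes were called lower and 4.09% higher, against 4.76% and 18.4% of the 756 longest. Across genes the Pearson correlation of the difference with log span was 0.16 over 10303 genes and 0.25 over the 4138 above a level of 7; genes are not independent and share the 9 arrays. On each array, the mean deviation of the longest group minus that of the shortest was 0.12 in male 2, 0.08 in male 4 and 0.16 in female 2. In the brighter arrays it was -0.02 in female 1, -0.06 in male 1, -0.11 in male 3, -0.08 in male 5, -0.05 in female 3 and -0.05 in male 6. Deviations here were from each gene's mean over the 9 arrays, so the set means had to lie on opposite sides of 0. What the values show is the separation of the sets. Every dim array lay above every brighter array, in the first and the second title number alike. No mature transcript length or RNA quality measure was used here, and the part of RNA quality, of amplification or of the amount of cRNA was not tested.

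**Figure D5:**
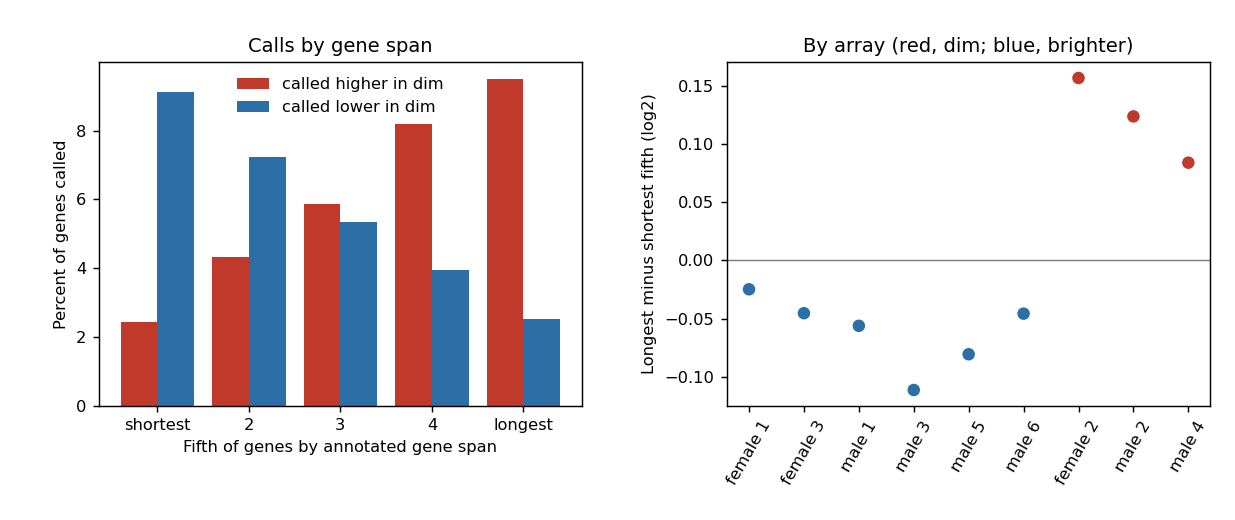
Left, percent of genes called higher (red) and lower (blue) in the dim arrays for 5 equal groups of genes by annotated span, shortest to longest; right, for each array, the mean log2 deviation of the longest group minus that of the shortest, over genes with a mean level above 7. Higher calls rise from 2.43% to 9.51% and lower calls fall from 9.12% to 2.52%. The 3 dim arrays lie above all brighter arrays. Deviations are from each gene's mean over all arrays, so the line at 0 is the mean of the arrays shown.

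Promoter composition showed no such steady order. Genes were put in 5 groups by GC content from 250 bases before to 50 after the start. Lower calls were 2.66% in the lowest group and 5.68% to 7.14% in the others. Higher calls were 5.78%, 4.68%, 5.74%, 6.57% and 7.20% from the lowest to the highest GC. The lowest group also had the lowest median level, 5.78 against 6.46 to 6.89. In the 250 bases before the annotated start, median GC content was 60.8% for genes called higher and for genes called lower, against 59.2% for all genes with a promoter sequence, and the median CpG count was 17 in both. Because many genes of ribosomes and mitochondria carry the binding sequence of ETS factors near their start, the letters CCGGAAG were searched on both strands of these 250 bases, with overlapping matches allowed. They were present in 13.2% of 8544 promoters of all tested genes, in 17.8% of those of uncalled genes with a level above 7, in 20.6% of 494 for genes called lower and in 15% of 512 for genes called higher. In the 51 cytosolic ribosomal protein promoters the share was 25.5% and in the 47 of mitochondrial ribosomal proteins 19.1%. Below are the 100 bases just before the start of 4 named genes, from RefSeq on GRCr8, written 5′ to 3′ on the gene's strand with matches to the motif on either strand in capitals. Rpl23 has the largest lower difference, Trmt112 and Hspe1 are short genes called lower that hold the motif, and Cul1 is a gene called higher that holds it too.
Rpl23 (chr10:83272185-83272284, minus strand): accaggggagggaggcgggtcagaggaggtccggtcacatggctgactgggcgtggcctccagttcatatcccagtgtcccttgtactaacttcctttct
Trmt112 (chr1:213532407-213532506, plus strand): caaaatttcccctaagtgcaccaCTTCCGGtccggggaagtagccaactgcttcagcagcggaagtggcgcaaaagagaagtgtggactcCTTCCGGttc
Hspe1 (chr9:64084227-64084326, plus strand): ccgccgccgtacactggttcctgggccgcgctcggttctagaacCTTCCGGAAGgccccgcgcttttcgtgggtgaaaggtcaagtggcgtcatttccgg
Cul1 (chr4:77551725-77551824, plus strand): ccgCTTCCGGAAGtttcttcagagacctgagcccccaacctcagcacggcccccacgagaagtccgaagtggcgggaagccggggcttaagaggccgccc
In Hspe1 and Cul1 the motif lies on both strands at once, as overlapping matches in 1 run of capitals. The motif thus stood before genes that were higher and genes that were lower, and a match is a description of letters, not a measured binding site.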

How the data were processed

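Cortex RNA of 9 rats was hybridised to 1 Illumina bead array each. The authors deposited 1 linear intensity per probe and array, which from the values was neither normalized nor background-subtracted; the scanner software is not given in the sources used here. They also deposited a table of log2 values for 15912 probes, which matched quantile-normalized log2 intensities (r of 0.99996 or above per array) and served as an alternative.

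Here log2 intensities of 22517 probes were quantile-normalized without background correction, and the 18531 probes above their array's 25th percentile on at least 3 arrays were tested with limma 3.58.1 in R 4.3.3 (lmFit, eBayes), dim against brighter, adjusted by Benjamini-Hochberg. No detection p-values came with the intensities. Symbols came from the platform annotation, with 10662 updated by gene identifier from RefSeq (GRCr8); 11830 of the probes had no symbol. A total of 571 probes shared all values with another probe. Named genes were the 10 with the smallest p in each direction, the 5 highest and 5 lowest differences without overlap and up to 3 members per list by p. Other genes named (Ldha, Rplp0, Rpl3l, Rps24, Olr59 and receptor and Rab genes among them) and the unnamed probe were chosen after their values were seen. The arrays, the 41 gene lists and the tests were chosen with earlier results of these data known. The number of arrays limits the precision. Each label describes 1 animal, and p-values measure only the spread between these samples. The fit was tested on simulated data. Alternatives covered scaling, background correction, filters, covariates and leaving out each array.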

Additional observations from a re-analysis of the deposited data

Results flagged for a closer look

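Of 33 checks for a sample far from the others (27 named genes and 6 further values among the 6 brighter arrays), 1 was positive, where chance gives about 1 in 20. Rpl13a, a large-subunit ribosomal protein gene, read 9.50 in male 6 and 9.75 to 9.83 in the other 5 brighter arrays, a gap of 0.774 of the whole range against a critical value of 0.625. Male 6 still lay above the 3 dim arrays, which read 9.01 to 9.11. The dim set holds 1 female, assumed in the fit to vary like the other animals, so the next comparison is weak. The difference between dim and brighter arrays was also compared between the sexes: limma's interaction of sex with the array set gave 0 of 18531 probes under an adjusted p of 0.05, with 703 at an unadjusted p under 0.05 and a smallest adjusted p of 0.22.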

How the results depend on the processing

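The count of 1667 called probes and that of 1638 without overlap moved with the scaling. Scaled to the 75th percentile they were 5318 and 3453, the first was 3284 with median scaling, 4027 with no normalization and 494 with title number as a block. Leaving out 1 array gave 697 to 1845 calls and 1669 to 1999 probes without overlap. Normexp correction, the deposited log2 table, other filters, sex as a covariate, an intensity trend and array weights gave 1396 to 2048 calls. At the unadjusted p under 0.001 that the study's design names, 940 probes were called. Among the 27 named genes, calls were lost only for Napb, Opalin and Map4k3; their directions, fixed by the lack of overlap when arrays are left out, did not turn under the other scalings. The myelin list's median, relative to all genes, turned from 0.16 to -0.15 within the second title number, and that of 13 excitatory neuron genes from -0.11 to 0.10 within the first; the cause was not tested. No paired analysis was possible because no label matches single dim animals to brighter ones; title number, which groups animals by an unexplained label, was used as the block above. Signal over background limits what dim probes can show: in the lowest of 10 groups by level 0.22% were called.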

Other observations

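One probe without a gene name, ILMN_1351707, was singled out after its values were seen (limma, adjusted p = 0.00012). It had the largest difference of the tested probes without a symbol. Its unnormalized intensity was 135.0 in male 2, 266.2 in male 4 and 146.5 in female 2, and 42.6 to 51.6 in the 6 brighter arrays, which is about the intensity of the median probe on those arrays (47.6 to 54.0). No detection p-value says whether the probe was above background there, so its log2 difference of 2.10 is to be read as a lower bound. Of the 7933 tested probes without a symbol, 443 were called, a smaller share than the 9% of all tested probes (1667 of 18531). Among lists not described above, calls were even in both directions for solute carriers (12 higher and 12 lower of 244, 4.92% each). They were also even for motor proteins and tubulins (6 and 6 of 62, 9.68% each). Ubiquitin enzymes had 8 higher and 7 lower of 68 (11.8% and 10.3%). Over all genes 6.06% were called higher and 5.62% lower. Without male 4 the calls of these lists were 2 and 3, 4 and 3, and 0 and 2.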
